A study of Mus musculus with 8 samples.

Results

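Interferon-induced genes were taken as a fixed list of 31 mouse genes, matched by symbol to the 55487 gene identifiers counted in each left-ventricle library. The list holds 19 genes known chiefly as targets of type I interferon (Ifit1, Ifit2, Ifit3, Ifit3b, Isg15, Oas1a, Oas2, Oasl2, Ifi44, Ifi27, Ifi35, Usp18, Rsad2, Bst2, Mx1, Mx2, Zbp1, Rtp4 and Xaf1). It also holds 6 transcription factors, RNA sensors and a regulator of the response (Irf7, Irf9, Stat2, Parp14, Ddx58 and Ifih1). The last 6 are GTPases known chiefly as targets of interferon gamma (Gbp2, Gbp3, Gbp4, Iigp1, Igtp and Irgm1). The division is from general knowledge of the pathway, and many of these genes respond to both interferon types. All 31 were found, and all 31 passed the filter on low counts that left 14695 genes for testing.

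The 8 libraries came from left ventricles of C57BL/6 mice aged 12 weeks, 4 labelled NLC with a wild-type genotype and 4 labelled CM-ADGRF5-KO. The second group, called KO here, carries a deletion of ADGRF5 (GPR116), an adhesion G protein-coupled receptor, which the labels restrict to myocytes. Each group had 2 males (replicates 1 and 2) and 2 females (replicates 3 and 4), stated to be biological replicates. The promoter that drives the deletion is not given in the sources used here, nor is whether the NLC animals carry any part of that system.

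Gene counts summed to between 25328784 and 39615408 reads per library, and mitochondrially encoded transcripts took 17.4 to 21.9% of them. Adgrf5 itself stood at 218.2 to 257.0 CPM (counts scaled to a common library total) in the NLC libraries and at 203.0 to 239.8 CPM in the libraries labelled KO, so the whole-tissue transcript count did not separate the genotypes (log2 fold change -0.05, 95% interval -0.22 to 0.12, adjusted p = 0.782 by edgeR's quasi-likelihood test with Benjamini-Hochberg adjustment). Cardiomyocyte markers were the most abundant of the marker lists, with summed levels of 72920 to 90084 CPM in the 7 libraries other than NLC 3 and 79890 CPM in NLC 3. NLC 4 had an atrial marker sum of 6321 CPM, against 399.4 to 882.9 CPM in the other 3 NLC libraries and 381.7 to 1528 CPM in the 4 KO libraries.

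Interferons are secreted proteins that signal through JAK kinases and STAT transcription factors. Type I interferons assemble a complex that contains STAT2 and IRF9 and binds the interferon-stimulated response element (ISRE), whereas interferon gamma acts mainly through the gamma-activated site (GAS). The induced proteins degrade or sequester viral RNA, tag proteins, block viral budding or attack the vacuoles of intracellular pathogens, and many have a low level in healthy heart tissue, in endothelial cells, immune cells and fibroblasts as well as in myocytes.

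Promoter stretches of 6 members are shown because ISRE and GAS are the elements known for this response. RefSeq promoter sequence on GRCm38.p6, running from 250 bases before to 50 bases after each annotated start, was matched for 21 of the 31 members. The searched letters were GAAA, any 2 bases and GAAA again for the ISRE core, and TTCNNNGAA for GAS, on both strands. Stretches of 160 bases are shown 5′ to 3′ on the gene's strand, in lower case, with ISRE and GAS matches in capitals. They are Ifit1 at chr19:34640729-34640888 (plus strand), Ifit3 at chr19:34583369-34583528 (plus), Isg15 at chr4:156200819-156200978 (minus), Oas1a at chr5:120907526-120907685 (minus), Gbp3 at chr3:142559884-142560043 (plus) and Igtp at chr11:58199396-58199555 (plus).
Ifit1: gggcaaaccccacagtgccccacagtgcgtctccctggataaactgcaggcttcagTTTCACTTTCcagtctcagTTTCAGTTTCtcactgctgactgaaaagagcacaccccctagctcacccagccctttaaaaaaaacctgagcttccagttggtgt
Ifit3: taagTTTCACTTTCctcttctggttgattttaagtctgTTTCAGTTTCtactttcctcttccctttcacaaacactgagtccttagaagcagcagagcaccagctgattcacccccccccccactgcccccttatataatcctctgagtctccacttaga
Isg15: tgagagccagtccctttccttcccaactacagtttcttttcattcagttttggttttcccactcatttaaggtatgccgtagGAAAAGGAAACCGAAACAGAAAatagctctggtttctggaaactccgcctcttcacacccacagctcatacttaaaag
Oas1a: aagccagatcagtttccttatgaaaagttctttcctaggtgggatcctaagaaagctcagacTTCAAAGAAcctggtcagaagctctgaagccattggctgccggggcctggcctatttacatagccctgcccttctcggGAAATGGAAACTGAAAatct
Gbp3: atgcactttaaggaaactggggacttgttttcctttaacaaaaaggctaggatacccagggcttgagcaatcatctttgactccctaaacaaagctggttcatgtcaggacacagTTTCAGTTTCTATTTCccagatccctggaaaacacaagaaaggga
Igtp: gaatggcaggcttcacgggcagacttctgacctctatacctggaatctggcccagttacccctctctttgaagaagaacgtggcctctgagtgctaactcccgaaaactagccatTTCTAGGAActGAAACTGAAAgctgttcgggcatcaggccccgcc
Ifit1 and Ifit3 each hold a pair of separate ISRE matches in reverse orientation. In Isg15 the capitals are 3 overlapping ISRE matches between positions -78 and -57 from the start, and in Oas1a 2 overlapping ISRE matches follow a GAS match at -98 to -90. Gbp3 holds 2 overlapping ISRE matches at -45 to -30. In Igtp a GAS match (-45 to -37) stands just before an ISRE match (-34 to -25) without overlapping it.

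The ISRE core was found within the 300-base window in 14 of the 21 members (66.7%) and in 3.99% of the 27025 genes in the promoter table. It was present in 4 of 4 gamma induced members with a promoter, in 7 of 12 type I induced members and in 3 of 5 factors and sensors. Iigp1 and Gbp4, also gamma induced, had no promoter sequence. A gene with several annotated starts was counted if any of them had a match, and the Gbp3 start not shown had no ISRE or GAS match. The GAS letters were found in 5 of 21 members (23.8%) and in 9.55% of all genes. In Bst2 a GAS match overlaps an ISRE match. They were in 1 of 4 gamma induced members and in 4 of 12 type I induced members. A match is a string of letters and was not tested as a binding site.

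One NLC library set the pattern of the whole list. NLC 3, from a female, had the highest level of the 8 libraries in 31 of 31 members, whereas it was the highest library in 12.5% of all tested genes. Its level was 1.15-fold (Ifi27) to 2.93-fold (Mx1) that of the median of the other 7 libraries, with a median over members of 1.79-fold. It reached 2-fold in 11 members, 6 of the type I class and 5 of the gamma class. Over the next highest library the excess ran from 1.02-fold (Ifi35) to 2.48-fold (Gbp4). The standard deviation (SD) of the NLC group was larger with NLC 3 than without it in 31 of 31 members. That follows almost directly from NLC 3 being the highest library in each, so it adds nothing to the ranking.

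**Figure D1:**
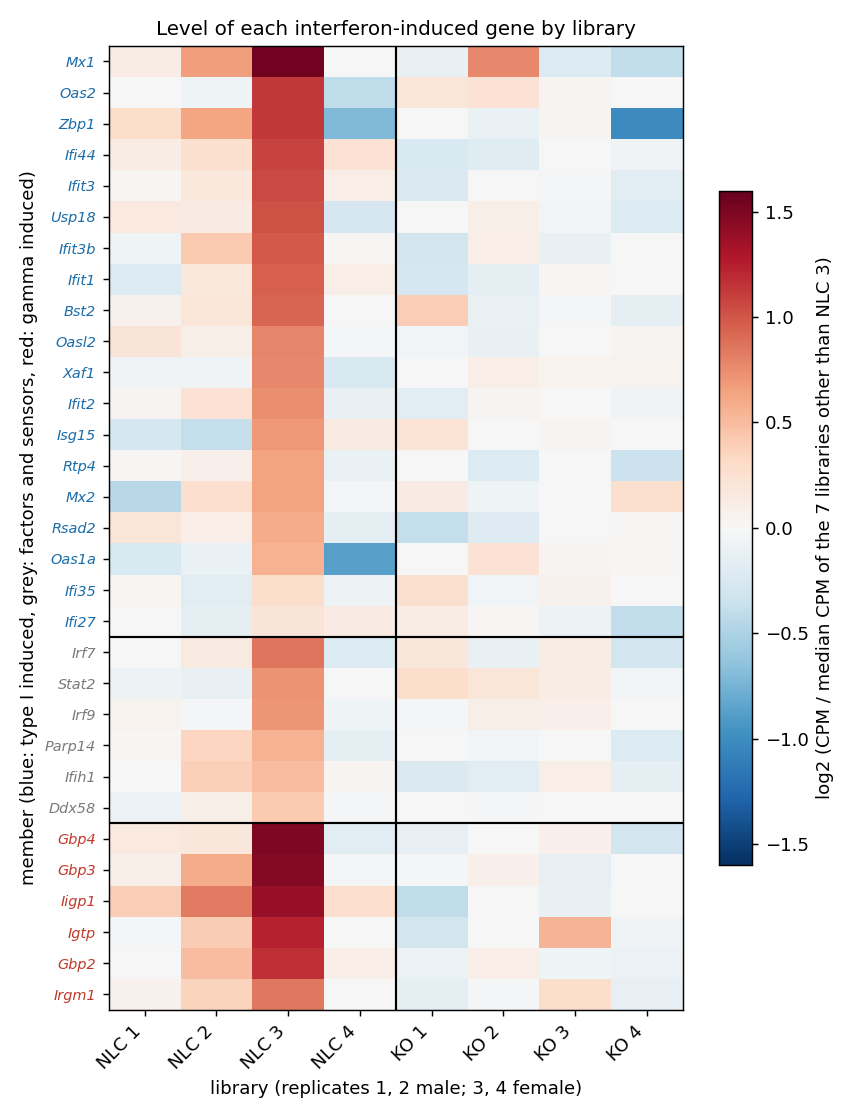
Level of each of the 31 members (rows, grouped by class) in each of the 8 libraries (columns), as the log2 ratio of its CPM to the median CPM of the 7 libraries other than NLC 3. The NLC 3 column is the darkest red in every row, and NLC 2 is the next highest library in 16 of the 31 rows.

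Among the type I induced effectors, the IFIT proteins are known to bind viral RNA that lacks host cap marks, and their genes lie next to one another on chromosome 19. Ifit3 stood at 10.5, 11.6, 21.5 and 11.1 CPM in NLC 1 to 4 and at 8.81, 10.3, 10.1 and 9.06 CPM in KO 1 to 4. All 4 KO libraries lay below all 4 NLC libraries, although 3 of the NLC libraries were close to them and NLC 3 was far above. Ifit1 ranged from 4.65 to 6.08 CPM in the other 3 NLC libraries and from 4.50 to 5.51 CPM in KO, with 10.5 CPM in NLC 3. In Ifit2 and Ifit3b, NLC 3 was at 1.66-fold and 1.98-fold the median of the other libraries. Ifit3 and Ifit3b are near-identical copies, so their split of the reads is uncertain.

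Isg15 encodes a ubiquitin-like tag that is joined to other proteins, and Usp18 removes that tag. Isg15 was at 3.64, 3.39, 7.15 and 4.88 CPM in NLC 1 to 4 and at 5.16, 4.43, 4.56 and 4.43 CPM in KO 1 to 4. The groups overlapped, and NLC 1 and NLC 2, both male, were the lowest of the 8 libraries. Usp18 was at 8.23 CPM in NLC 3 and between 3.35 and 4.50 CPM in the other 7.

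The OAS enzymes sense double-stranded RNA and switch on RNase L. Oas2 was at 14.2, 13.5, 31.2 and 10.7 CPM in NLC 1 to 4 and at 16.2, 16.7, 14.6 and 14.1 CPM in KO 1 to 4. The KO libraries therefore lay inside the NLC range, far below NLC 3 and, for 3 of the 4, above the rest. Oas1a was at 2.62, 2.86, 4.55 and 1.69 CPM in NLC and at 3.09, 3.63, 3.19 and 3.12 CPM in KO. Every KO library was above NLC 1, NLC 2 and NLC 4 and below NLC 3 for Oas1a. Oasl2, a relative that ends in ubiquitin-like domains, was at 22.5 CPM in NLC 3 and at 12.1 to 15.1 CPM elsewhere.

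Xaf1, an antagonist of the apoptosis inhibitor XIAP, was at 9.15, 9.14, 16.2 and 7.99 CPM in NLC and at 9.49, 10.2, 9.87 and 9.84 CPM in KO. Here too the KO libraries sat tightly together, below NLC 3 and above the other 3 NLC libraries. Ifi44, an interferon-induced protein of the cytoplasm, was at 3.86, 4.24, 7.52 and 4.18 CPM in NLC and at 2.99, 3.11, 3.55 and 3.42 CPM in KO. Its KO libraries lay below all 4 NLC libraries.

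Bst2 (tetherin), which holds budding virus at the cell surface, was at 21.9, 23.9, 39.7 and 20.9 CPM in NLC and at 27.4, 19.5, 20.4 and 18.7 CPM in KO. Per kilobase of exon it was the most abundant member, at a mean of 24.1 CPM per kilobase over the 7 libraries other than NLC 3, followed by Ifi27 at 19.5 and Ifi35 at 12.9. Ifi27 and Ifi35 were also the members in which NLC 3 stood out least, at 1.15-fold and 1.21-fold the median of the others. Rsad2 (viperin), which makes a chain-terminating nucleotide, was at 26.6 CPM in NLC 3 and 13.5 to 20.1 CPM elsewhere.

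The dynamin-like Mx proteins trap viral nucleocapsids, and inbred mouse strains are known to carry defective copies of their genes. Mx1 was the least abundant member per kilobase, at 0.207 CPM per kilobase, with 0.750, 1.1, 2.02 and 0.692 CPM in NLC and 0.635, 1.18, 0.597 and 0.526 CPM in KO. NLC 2 and KO 2 were the next highest libraries after NLC 3. Mx2, annotated as a polymorphic pseudogene, was at 3.34 CPM in NLC 3 and at 1.57 to 2.57 CPM elsewhere. Zbp1, a sensor of Z-form nucleic acid in cell death, was at 1.87, 2.37, 3.34 and 0.934 CPM in NLC and at 1.53, 1.42, 1.58 and 0.752 CPM in KO. Its 2 lowest libraries were NLC 4 and KO 4. Rtp4, a chaperone of membrane receptors, was at 11.2 CPM in NLC 3 and at 5.67 to 7.59 CPM elsewhere. A count of 3 reads corresponds to 0.0793 to 0.122 CPM in these libraries, so all members were counted well above that level.

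The factors and sensors stood out less in NLC 3, which was at 1.34-fold to 1.82-fold the median of the other libraries in these 6 members, and in none of them did it reach 2-fold. Stat2, the STAT subunit specific to the type I and type III complex, was at 26.1, 25.4, 45.4 and 27.5 CPM in NLC and at 33.3, 31.5, 29.8 and 26.6 CPM in KO. Without NLC 3, its 3 highest libraries were KO 1, KO 2 and KO 3. Irf9, the DNA-binding subunit of the same complex, was at 34.0 CPM in NLC 3 and between 19.8 and 22.2 CPM in the other 7. Irf7, the factor that amplifies interferon production, was at 16.9, 18.6, 30.7 and 14.5 CPM in NLC and at 19.1, 15.5, 18.3 and 13.8 CPM in KO. NLC 4 and KO 4, both from females, were the lowest.

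Ddx58 (RIG-I) and Ifih1 (MDA5) detect viral RNA in the cytoplasm. Ddx58 was at 20.4 CPM in NLC 3 and between 14.3 and 16.2 CPM in the other 7, the 4 KO libraries lying within 14.9 to 15.3 CPM. Ifih1 was at 9.03, 11.8, 12.7 and 9.27 CPM in NLC and at 7.70, 7.95, 9.69 and 8.15 CPM in KO. NLC 3 was here only 1.08-fold above NLC 2. Parp14, a mono-ADP-ribosyltransferase, was likewise close in the 2 libraries, with 41.6 CPM in NLC 3 and 35.9 CPM in NLC 2.

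The gamma induced GTPases had the highest class median of the excess in NLC 3, at 2.50-fold the median of the other libraries against 1.72-fold in the type I class. Their range was 1.79-fold (Irgm1) to 2.83-fold (Gbp4). The type I class ranged from 1.15-fold (Ifi27) to 2.93-fold (Mx1), so the largest single excess was not in the gamma class. Guanylate-binding proteins coat and break open the vacuoles of intracellular microbes. Gbp4 was at 19.4, 19.8, 49.2 and 15.4 CPM in NLC and at 15.9, 17.4, 18.4 and 14.2 CPM in KO. Gbp3 was at 13.9, 19.7, 36 and 12.8 CPM in NLC and at 12.8, 13.7, 11.9 and 13 CPM in KO. Gbp2 was at 18.6, 26.2, 41.9 and 20 CPM in NLC and at 17.5, 20.1, 17.8 and 17.5 CPM in KO. In all 3 genes NLC 2 was second to NLC 3, and NLC 1 and NLC 4 lay among or close to the KO libraries.

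The immunity-related GTPases act on the same vacuoles. Iigp1 was at 37.3, 50.5, 74.5 and 34.0 CPM in NLC 1 to 4 and at 21.4, 28.3, 26.1 and 28.3 CPM in KO 1 to 4. No KO library reached the lowest NLC library, and the other 3 NLC libraries were above KO as well. Igtp was at 12.7, 17.3, 30.6 and 13.1 CPM in NLC and at 10.6, 13, 18.9 and 12.5 CPM in KO. Irgm1, which restrains the other GTPases of this family, was at 22, 26.7, 37.5 and 20.9 CPM in NLC and at 18.9, 20.5, 25.4 and 19.1 CPM in KO. For Igtp and Irgm1 the groups overlapped, with KO 3 above 3 and 2 of the NLC libraries, respectively. Igtp overlaps Irgm2 on the same strand, and Gbp4 overlaps Gbp9 and Gbp8, so reads in the shared exons may have been set aside as ambiguous.

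**Figure D2:**
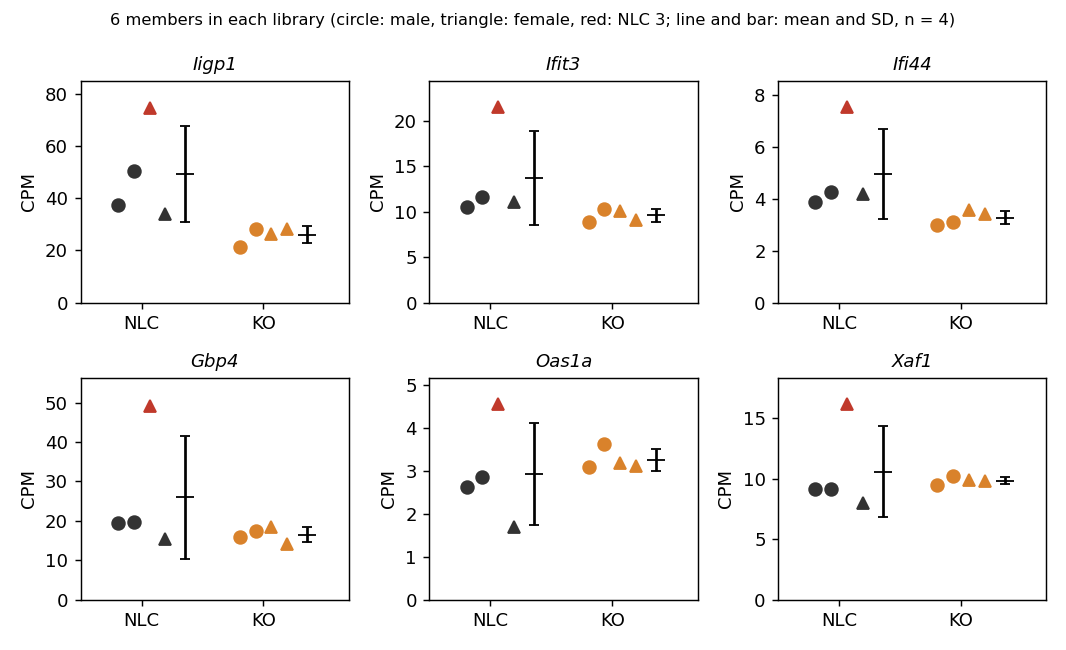
CPM of 6 members in each library (circles male, triangles female, NLC 3 in red), with the group mean and SD (n = 4) to the right of each group. Iigp1, Ifit3 and Ifi44 have all KO libraries below all NLC libraries, whereas in Oas1a and Xaf1 the KO libraries lie between NLC 3 and the other 3 NLC libraries.

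Expressed as a score per library (the median over a class of log2(CPM + 0.5), centred on each gene's mean over 8 libraries), the classes ranked alike. The gamma class was at 1.04 in NLC 3, the type I class at 0.66 and the factors and sensors at 0.53. The other 7 libraries spanned -0.29 to 0.24 in the gamma class, -0.13 to 0.05 in the type I class and -0.19 to 0.05 in the factors and sensors. NLC 2 was next in the gamma class, at 0.24, where it was the second library for 5 of 6 members, against 8 of 19 in the type I class. The difference in excess between the classes is a description of 1 library and was not tested. At the other end, KO 1 was the lowest library in 11 members, KO 4 in 8 and NLC 4 in 5.

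**Figure D3:**
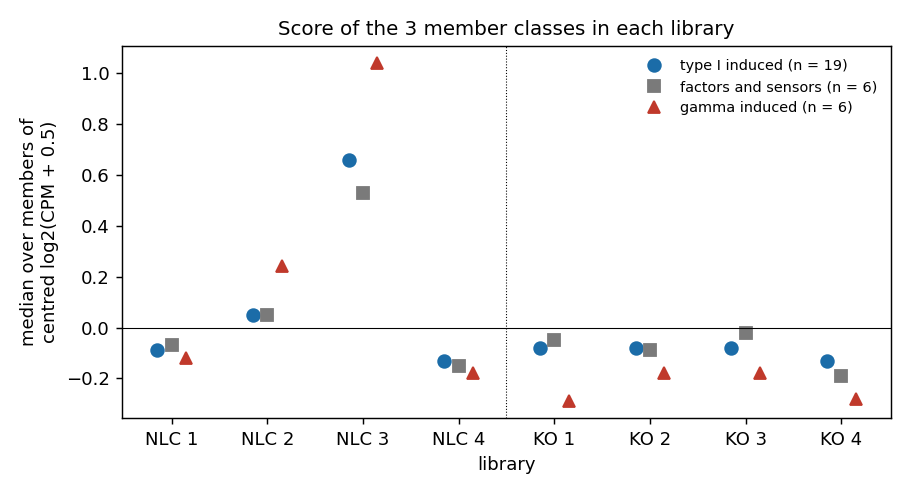
Score of each class (median over its members of centred log2(CPM + 0.5)) in each of the 8 libraries, NLC to the left of the dotted line and KO to the right. NLC 3 stands 0.80, 0.62 and 0.48 above the next library in the gamma, type I and factor classes, while the remaining scores lie between -0.29 and 0.24.

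Whether the genes varied together was described with Pearson's r of log2(CPM + 0.5) across libraries for each of the 465 pairs of members. The values share libraries and scaling and are given with no test. Over 8 libraries the median r was 0.79 (quartiles 0.63 and 0.88), and 465 of 465 pairs were positive. Over the 7 libraries without NLC 3 it was 0.21 (quartiles -0.15 and 0.55), with 304 positive pairs (65.4%). The gamma induced GTPases kept the highest values, with a median r of 0.90 over 8 libraries and 0.59 over 7, where 15 of 15 pairs were positive. Pairs within the type I class went from a median of 0.72 to 0.07, with 95 of 171 positive without NLC 3. Pairs of a gamma induced with a type I induced member went from 0.84 to 0.35.

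The comparison of KO with NLC asks whether loss of the receptor in myocytes is accompanied by a change in these genes in the ventricle. No member passed an adjusted p of 0.05 in edgeR's quasi-likelihood test with sex as a covariate (0 of 31, adjusted p from 0.197 to 0.991). Over all genes 15 of 14695 passed (0.102%). In direction, 28 members were lower in KO and 3 higher (Isg15, Oas1a and Ifi35), with a median log2 fold change of -0.32 against -0.01 over all tested genes. At an unadjusted p under 0.05, 7 members were lower (Ifit3, Ifi44, Rsad2, Gbp2, Gbp3, Iigp1 and Ifih1), against 6.18% of all genes, and 0 were higher, against 5.77%. DESeq2 and limma voom also called 0 members. With no filter on low counts edgeR called 9, all lower in KO (Ifit3, Ifi44, Rsad2 and the 6 gamma induced members), in a setting that called 621 of 27953 genes. The class medians were -0.57 for the gamma induced, -0.31 for the type I induced and -0.21 for the factors and sensors. In these bulk libraries fewer cells of a type and less RNA per cell cannot be told apart.

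Much of that difference went with the NLC 3 library. Without it, 21 members were lower in KO and 10 higher, and the median log2 fold change was -0.11, against -0.00 over all genes. Again 0 of 31 members passed (adjusted p from 0.0971 to 0.993 in edgeR's test with Benjamini-Hochberg adjustment), whereas 50 of 14849 genes did (0.337%). At an unadjusted p under 0.05, 2 members were lower (Iigp1 and Ifi44; 9.29% of all genes) and 3 higher (Oas1a, Oas2 and Stat2; 8.68% of all genes). The log2 fold change turned from negative to positive in 7 members (Oas2, Mx2, Xaf1, Irf7, Irf9, Stat2 and Ddx58), of which none was gamma induced. The medians became -0.08 in the type I class, 0.02 in the factors and sensors and -0.19 in the gamma class, where 6 of 6 members were still lower in KO.

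**Figure D4:**
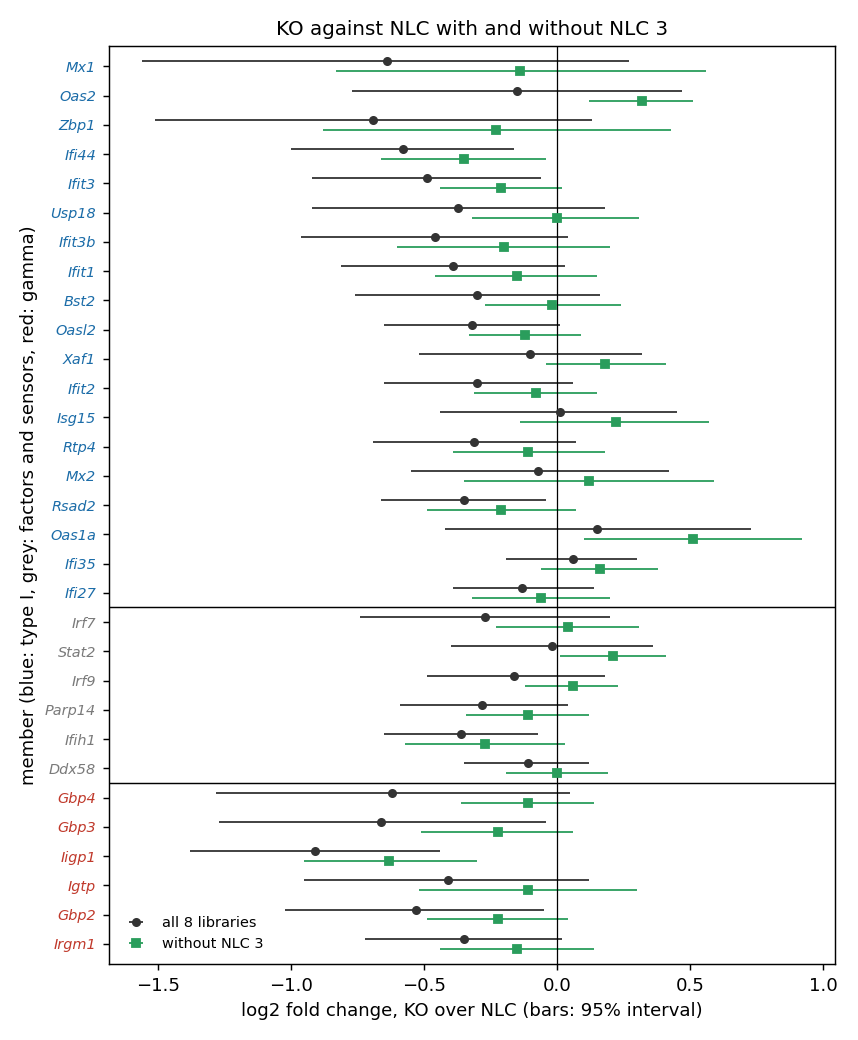
Log2 fold change of each member in KO over NLC with its 95% interval from the edgeR fit, with all 8 libraries (black circles) and without NLC 3 (green squares). The interval includes 0 in 24 of 31 members with NLC 3 and in 26 without it, and most green squares lie to the right of the black circles.

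Iigp1 had the largest difference. Its mean was 49.1 ± 18.4 CPM in NLC and 26.0 ± 3.25 CPM in KO (SD, n = 4 each). The log2 fold change was -0.91 (standard error 0.213, 95% interval -1.38 to -0.44), with an adjusted p of 0.197 by edgeR's quasi-likelihood test with Benjamini-Hochberg adjustment. Without NLC 3 it was -0.63 (standard error 0.147, interval -0.95 to -0.30, edgeR adjusted p = 0.0971), so the interval of this single gene stayed below 0 while the adjusted p missed the threshold. Without NLC 4 it was -1.09 (edgeR adjusted p = 0.0345), in a setting where 20 of 14848 genes passed. With single libraries left out of this comparison over both sexes, Iigp1 was the only member called, and only without NLC 4. An exact two-sided permutation test of the means, run on all 31 members, gave an unadjusted p = 0.0286 for Iigp1, Ifit3 and Ifi44. That is the smallest that 4 against 4 libraries allow. It follows from complete separation of the groups, so it adds nothing to the count of separated members. Complete separation, with KO all below NLC, occurred in 3 of 31 members and in 3.03% of all genes, and the opposite in 0 members and 3.22% of genes.

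Other members differed less from their replicate spread. Ifi44 was at 4.95 ± 1.72 CPM in NLC and 3.27 ± 0.260 CPM in KO (SD, n = 4 each), a log2 fold change of -0.58 (edgeR adjusted p = 0.326), and -0.35 without NLC 3 (edgeR adjusted p = 0.240). Gbp4 was at 26.0 ± 15.6 CPM against 16.5 ± 1.83 CPM (SD, n = 4 each), and its log2 fold change went from -0.62 to -0.11 without NLC 3. Oas2 was at 17.4 ± 9.32 CPM against 15.4 ± 1.26 CPM (SD, n = 4 each). Its log2 fold change was -0.15 with all libraries and 0.32 (interval 0.12 to 0.51, edgeR adjusted p = 0.127) without NLC 3. Oas1a went from 0.15 to 0.51 (edgeR adjusted p = 0.204). Without NLC 3 the KO libraries were all above the remaining NLC libraries in Oas1a and Xaf1 (2 of 31 members, and 5.89% of all genes) and all below in 3 of 31 (5.80% of all genes).

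Within males NLC 3 takes no part in the fold change. It does enter the estimate of spread, which all 8 libraries share, and so the p-values. In males 21 members were lower in KO and 10 higher, with a median log2 fold change of -0.19. No member passed in edgeR's test with Benjamini-Hochberg adjustment (0 of 31, and 0.0408% of all genes). At an unadjusted p under 0.05, 1 member was lower (8.45% of all genes) and 0 were higher (9.01% of all genes). That member was Iigp1, at a log2 fold change of -0.82 (edgeR adjusted p = 0.241). Within females 30 members were lower and the median was -0.47. Again 0 of 31 passed, as did 0% of all genes, and at an unadjusted p under 0.05, 9 members were lower (2.99% of all genes) and 0 higher (2.14% of all genes). DESeq2 called 0 members in either sex.

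The female comparison depended on which of its 2 NLC libraries was kept. Without NLC 3 the female median was 0.04, with 18 members higher and 13 lower, and 0 called in edgeR's test (0.263% of all genes). Without NLC 4, 31 of 31 were lower with a median of -0.80, and 10 passed (Ifit3, Oas2, Oasl2, Stat2, Usp18, Bst2, Gbp2, Gbp3, Gbp4 and Iigp1), against 0.546% of all genes. In that setting NLC 3 is the only female control, and its spread is assumed to equal that of the other groups. NLC 4 is the library with the high atrial marker sum, whose part in the result was not tested. The sex by genotype interaction was tested directly and passed in 0 of 31 members in edgeR's test (adjusted p from 0.648 to 0.956, and 0% of all genes). DESeq2 also called 0 members, and 3 members (Isg15, Stat2 and Ifi27) had an unadjusted p under 0.05, against 7.46% of all genes.

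Genes of the pathway upstream of the members were read in the same libraries, where NLC 3 was the highest in 12.5% of all tested genes. Of 21 interferon genes, 18 had no read in any library, and the summed level of the ligands was at most 0.105 CPM, near the value of 3 reads. Interferon gamma (Ifng) had 4 reads over all 8 libraries, none of them in NLC 3. Among 11 receptor and JAK-STAT genes, 0 passed the edgeR test, 8 were lower and 3 higher in KO, and NLC 3 was the highest library in 2. Jak1, the kinase shared by the receptors of both interferon types, was at 143.9 ± 13.7 CPM in NLC and 111.9 ± 5.20 CPM in KO (SD, n = 4 each), with a log2 fold change of -0.36 and an edgeR adjusted p of 0.179. It was the 1 gene of this list at an unadjusted p under 0.05, against 6.18% lower and 5.77% higher over all genes. It was also the 1 that DESeq2 called, while limma voom called 0. Without NLC 3 its log2 fold change was -0.35. Ifnar1, a chain of the type I receptor, and Jak2 had log2 fold changes of -0.15 and -0.17.

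Of 7 other interferon regulatory factors 0 passed, and NLC 3 was the highest library in 2, Irf8 and Irf1. Irf1, the early factor of the gamma response, was at 46.8 CPM in NLC 3 and 28.2 to 34.6 CPM elsewhere. Irf8 had a log2 fold change of -0.34, and Irf3 and Irf5 of 0.23 and -0.12. NLC 3 was highest in 2 of 10 tested inhibitors of the response, Trim30a and Samhd1, and in 5 of 16 nucleic acid sensors. Among those sensors and adaptors Tmem173 (STING) had a log2 fold change of -0.28, Cgas of -0.47, Tlr3 of -0.22 and Mavs of 0.13, and none passed. Each of these 3 lists held 1 gene lower at an unadjusted p under 0.05 and 0 higher, against 6.18% lower and 5.77% higher over all genes. With lists of 7, 10 and 16 tested genes, 1 gene is too few to read as a shift. DESeq2 and limma voom called 0 in each.

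Other induced genes were counted in the same way. NLC 3 was the highest library in 39 of 54 tested further type I induced genes, in 20 of 23 further gamma induced genes and in 15 of 16 antigen presentation genes. Their median log2 fold changes in KO were -0.14, -0.59 and -0.33, and without NLC 3 they were -0.01, -0.20 and -0.04. None of these genes passed the edgeR test, and 4, 10 and 4 of them were lower and 0 higher at an unadjusted p under 0.05, against 6.18% lower and 5.77% higher over all genes. The share in the further type I induced genes was close to that of all genes. DESeq2 and limma voom called 0 in each list. Tgtp1, a GTPase of the same family as Iigp1, was at 6.00 CPM in NLC 3 and 1.16 to 2.77 CPM elsewhere, with a log2 fold change of -1.14 (edgeR adjusted p = 0.266). Irgm2, Gbp9 and Gbp7 had log2 fold changes of -0.65, -0.49 and -0.59. Beta-2 microglobulin (B2m), the invariant chain of class I molecules, was at 329.3 CPM in NLC 3 and 140.9 to 223.7 CPM elsewhere. The class I heavy chain genes H2-Q6, H2-Q4 and H2-K1 had log2 fold changes of -0.83, -0.48 and -0.45, and reads of these near-identical genes cannot be divided with certainty.

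**Figure D5:**
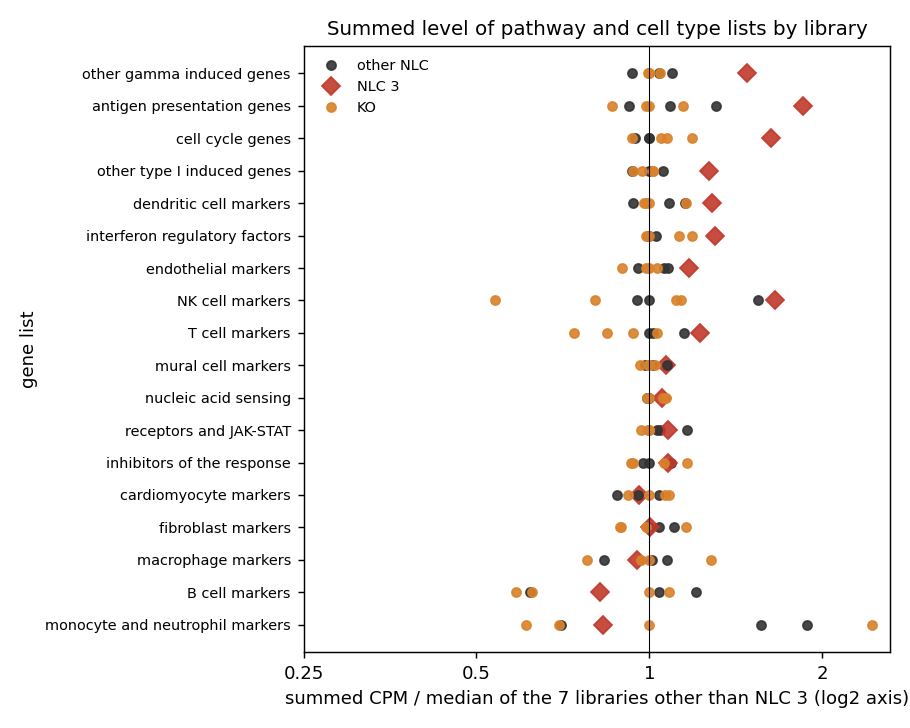
Summed CPM of each pathway or cell type list in each library, divided by the median of the 7 libraries other than NLC 3 (log2 axis, red diamonds for NLC 3; ligands, atrial and blood lists not drawn). NLC 3 lies to the right of all other libraries for other gamma induced, antigen presentation, cell cycle and other type I induced genes, at 1.2-fold to 1.42-fold the next library. It is also furthest right, at 1.07-fold to 1.11-fold, for dendritic, T and NK cell markers, endothelial markers and interferon regulatory factors. It lies within the range of the others for macrophage, fibroblast and cardiomyocyte markers.

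Markers of the cells that could carry these transcripts were read in the same libraries. The summed level of 10 endothelial markers was 1666 CPM in NLC 3 and 1273 to 1533 CPM in the other 7, but NLC 3 was the highest library in only 3 of the 10. Of these 10 markers, 9 were lower in KO with none called in edgeR's test. At an unadjusted p under 0.05, 4 of the 10 were lower and 0 higher, against 6.18% lower and 5.77% higher over all genes. The median log2 fold change of the endothelial markers was -0.18, and -0.14 without NLC 3. The 12 T cell markers summed to 6.75 CPM in NLC 3 and 4.07 to 6.32 CPM elsewhere, with 3 of 12 counted deeply enough to test. NLC 3 was the highest library in 1 of those 3. For 8 natural killer cell markers, of which 0 could be tested, the sums were 1.08 CPM and 0.351 to 1.01 CPM. For 8 dendritic cell markers they were 18.5 CPM and 13.5 to 16.7 CPM. Of that dendritic sum in NLC 3, 15.3 CPM came from Zbtb46, and NLC 3 was the highest library in both tested markers. The 13 macrophage markers summed to 421.0 CPM in NLC 3, inside the range of 344.1 to 566.0 CPM of the others. The same held for the 8 B cell markers (14.7 CPM within 10.5 to 21.6) and the 10 monocyte and neutrophil markers (3.68 CPM within 2.70 to 10.8), among which Ly6g had no read in any library. The 20 cell cycle genes summed to 127.3 CPM in NLC 3 and 73.0 to 92.9 CPM in the others, and NLC 3 was the highest library in 17 of the 19 tested. The part of these cell types and of the cell cycle genes in the members' levels was not tested.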

How the data were processed

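RNA of 8 left ventricles was sequenced with a stranded mRNA kit, per the labels' protocols. The authors deposited raw read counts per Ensembl gene for each library, made with STAR and HTSeq against GRCm38 per the submitters' processing notes, which also name DESeq2. No source used here gives versions or the strand setting. The 5 summary entries per file were left out; they held no-feature reads (3.07 to 4.08%), ambiguous reads (1.26 to 1.38%) and reads without a unique position (16.8 to 20.3%). Symbols came from GENCODE annotation of GRCm38 for 55141 of 55487 identifiers.

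From the counts, edgeR 4.0.16 with TMM scaling, its default expression filter by genotype and a model of sex plus genotype compared KO with NLC, and a model of the 4 sex and genotype groups gave the comparisons within sexes and their interaction. P-values were adjusted by Benjamini-Hochberg over all tested genes, with a threshold of 0.05. CPM use the TMM-scaled library sizes. Libraries of 1 group differed by 15.3 to 41.7 chi-square units per degree of freedom, so each was counted. The fit was tested on simulated data. Alternatives were other scaling, DESeq2 1.42.0, limma voom (limma 3.58.1), other filters, no mitochondrially encoded genes, no sex term, a replicate block and each library left out.

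The members, their classes and the other lists were chosen with earlier results of these data known, so no test was made over a list. All 31 members are named, and of each pathway list up to 4 tested genes with the smallest p in KO against NLC. One gene that this rule names is not reported here. Ifng was named after its values were seen.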

Additional observations from a re-analysis of the deposited data

Results flagged for a closer look

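In groups of 4 libraries, a level whose gap to its nearest neighbour, as a share of the group's range, exceeded the 95% critical value of Dixon's test was looked at again. Of 62 groups (31 members in NLC and in KO), 9 held such a level. The nominal rate of the test is about 1 in 20, for independent and normally distributed values. The share of all tested genes with such a level was not computed, so the 9 cannot be set against it. NLC 3 was the library in 7 of the 9: Ifit3 at 21.5 CPM, Ifi44 at 7.52 CPM, Bst2 at 39.7 CPM, Xaf1 at 16.2 CPM, Irf9 at 34.0 CPM, Stat2 at 45.4 CPM and Gbp4 at 49.2 CPM. The 31 members are not independent of one another, so these are 7 readings of the same library. In the KO group KO 2 stood apart in 2 members, Gbp2 at 20.1 CPM and Mx1 at 1.18 CPM.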

How the results depend on the processing

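The count of members called in KO against NLC stayed at 0 with RLE and upper-quartile scaling, DESeq2, limma voom, the stricter filter, no mitochondrially encoded genes and no sex term. With no filter on low counts it was 9, all lower in KO. That setting called 2 members in males and 7 in females, all lower in KO, and 3 in the interaction. The genes called over the whole table were 15 of 14695, and 148 with DESeq2, 621 of the 27953 tested with no filter and 6 without the sex term. In males they were 6, and 312 with DESeq2 and 1007 with no filter. In females they were 0, and 17 and 277; in the interaction they were 0, and 15 and 243. With no filter the edgeR adjusted p of Iigp1 was 1.32e-18 against 0.197, at a log2 fold change of -0.91 in both. The cause of these differences was not tested.

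Leaving out each library in turn, genes called ran from 0 to 50 (50 without NLC 3) in KO against NLC, from 0 to 59 in males, from 0 to 81 in females (81 without NLC 4) and from 0 to 8 in the interaction. Members called ran from 0 to 1 in KO against NLC (Iigp1 without NLC 4), from 0 to 10 in females (10 without NLC 4) and stayed at 0 in males and the interaction. The median log2 fold change of the members ran from -0.45 (without NLC 4) to -0.11 (without NLC 3), that of the gamma class from -0.75 to -0.19, that of the type I class from -0.43 to -0.08 and that of the factors and sensors from -0.33 to 0.020, the last without NLC 3.

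The log2 fold change of 10 members changed sign in some setting. Isg15 was -0.0060 with limma voom, -0.039 without the sex term and ran from -0.12 to 0.22 over the libraries left out. The ranges over libraries left out were -0.055 to 0.51 for Oas1a, -0.34 to 0.32 for Oas2, -0.034 to 0.16 for Ifi35, -0.22 to 0.12 for Mx2, -0.24 to 0.18 for Xaf1, -0.41 to 0.036 for Irf7, -0.27 to 0.056 for Irf9, -0.11 to 0.21 for Stat2 and -0.18 to 0.0045 for Ddx58.

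With the replicate number as a block in place of sex, 0 genes and 0 members were called and the members' median was -0.30. The replicate number is not stated to pair animals, and pairing was not tested. Same-numbered deviations correlated at 0.29, 0.11, -0.21 and 0.09, and 4 of 8 libraries correlated best with their own number. Reads shared by overlapping or near-identical genes limit single members.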
